A study of Mus musculus with 6 samples.

Results

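Insulin signalling and glucose transport were followed through 10 genes in mouse mesenchymal stem cells exposed to terahertz light, namely Insr, Irs1, Irs2, Pik3r1, Akt1, Akt2, Foxo1, Tbc1d4, Slc2a4 and Slc2a1. The genes were chosen by name, as members of the pathway, with earlier results of these data known. All 10 were found among the 18193 genes of the array, on 27 probe sets whose annotation gave exactly 1 symbol, and the brightest probe set of a gene, by its mean over the 6 arrays, gave its values. The 17 other probe sets served as checks. Irradiated cultures were exposed for 2 h to a continuous-wave gas laser at 2.52 THz, which is far-infrared light. Control cultures stood beside them, unexposed, at the same 26 to 27 °C, and RNA was taken at the end of the exposure. There were 3 independent experiments with 1 irradiated and 1 control culture each, and each culture was read on 1 Affymetrix array. All 6 cultures were the same commercial mesenchymal stem cells, which can form fat, bone and cartilage. All had received, anew 48 h before exposure, 5 µg/ml insulin, 1 µM Roziglitazone, 1 µM dexamethasone and 100 µM 3-Isobutyl-1-methylxanthine. The sample labels give 5% fetal bovine serum (FBS) for all 6. The ligand of the pathway had thus been added to every culture of either group, and no culture without it was compared. How much insulin was left at exposure is not given here.

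Insulin binds a receptor tyrosine kinase, encoded by Insr, which phosphorylates the adaptor proteins IRS1 and IRS2. These recruit phosphoinositide 3-kinase through its regulatory subunit, encoded by Pik3r1, and the lipid it makes leads to activation of the kinases AKT1 and AKT2. AKT keeps the transcription factor FOXO1 out of the nucleus and phosphorylates TBC1D4, also called AS160, which releases vesicles carrying the transporter GLUT4, the product of Slc2a4, to the surface of fat and muscle cells. GLUT1, the product of Slc2a1, carries glucose into most cell types without such a need for insulin. Most of this chain works by phosphorylation and by movement of proteins, which an expression array does not read.

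Genes of fat cells and of macrophages were bright in these cultures, and those of muscle, the other tissue known for Slc2a4, were dim. Of 12 measured fat cell markers 12 lay at or above the level of the median gene, 6.46 on the log2 scale, against 0 of 8 skeletal muscle markers and 0 of 6 endothelial markers. The same count was 8 of 9 for mesenchymal stromal markers, 10 of 10 for macrophage markers and 1 of 5 for epithelial markers, the 1 being Epcam. The mean level of the macrophage markers was 11.12 to 11.72 over the 6 arrays. That of the fat cell markers was 10.80 to 11.38 and that of the stromal markers 9.08 to 9.25. Thy1, which usually defines mesenchymal stromal cells, was the stromal exception, with a mean level of 3.88. Arrays give no depth, and precision here is limited by their number. The array medians lay between 5.01 and 5.05. The control array of experiment 3 was apart in an index of RNA quality, the 3' minus the 5' signal of actin, at 0.68 where the other arrays had 0.50 to 0.57, and in that of Gapdh, at 0.11 against -0.10 to -0.08. Without experiment 3 limma also called 0 of the 10 genes. Akt1 then stood at -0.26 and Slc2a4 at -0.285, where both had -0.19 over the 3 experiments, and Foxo1 stood at -0.035, where it had 0.013. In cultures read as a whole, fewer cells of a type and less RNA per cell cannot be told apart.

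Promoter sequences were available for 8 of the 10 genes, matched by symbol in 13 entries from RefSeq (build GRCm38.p6). The 250 bases before the start are printed 5' to 3' for 4 genes. Akt2 and Tbc1d4 are shown because they had a large difference in experiment 2, Slc2a1 because it went the other way there, and Irs2 because its promoter is a textbook target of insulin. Capitals mark 4 motifs on either strand. The GC box reads GGGCGG, the CCAAT box reads as its name, the E-box reads CACGTG, and the core of the insulin response sequence that FOXO factors bind reads TGTTTTG. The entry of Akt2 is the most upstream of 4.
Irs2, chr8:11008930-11009179, minus strand: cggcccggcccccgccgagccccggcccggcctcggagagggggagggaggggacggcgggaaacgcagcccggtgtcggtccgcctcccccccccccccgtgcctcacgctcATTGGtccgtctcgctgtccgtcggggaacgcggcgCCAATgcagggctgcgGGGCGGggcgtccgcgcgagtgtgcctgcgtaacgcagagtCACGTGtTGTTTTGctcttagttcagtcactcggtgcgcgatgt
Akt2, chr7:27591302-27591551, plus strand: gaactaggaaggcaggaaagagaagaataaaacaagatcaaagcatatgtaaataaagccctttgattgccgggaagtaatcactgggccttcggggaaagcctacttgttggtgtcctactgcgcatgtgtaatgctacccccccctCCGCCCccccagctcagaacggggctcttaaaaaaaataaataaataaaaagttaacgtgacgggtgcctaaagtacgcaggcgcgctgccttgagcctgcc
Tbc1d4, chr14:101609192-101609441, minus strand: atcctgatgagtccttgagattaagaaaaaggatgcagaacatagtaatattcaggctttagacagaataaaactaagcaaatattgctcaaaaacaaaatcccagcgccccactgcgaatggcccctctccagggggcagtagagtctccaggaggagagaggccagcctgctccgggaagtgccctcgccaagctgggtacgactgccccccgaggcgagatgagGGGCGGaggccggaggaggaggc
Slc2a1, chr4:119108495-119108744, plus strand: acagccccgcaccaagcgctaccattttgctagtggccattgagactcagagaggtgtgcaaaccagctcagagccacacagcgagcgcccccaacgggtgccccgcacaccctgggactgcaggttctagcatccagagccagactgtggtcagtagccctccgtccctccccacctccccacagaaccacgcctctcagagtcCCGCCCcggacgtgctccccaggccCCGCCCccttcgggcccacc
In Irs2 the E-box began 44 bases before the start and the insulin response core 37 bases before it, 1 base apart and without overlap. Both were found in Irs1 too, and in no other entry of the 10 genes. An E-box stood in 6.02% and the core in 5.56% of all 32851 promoters of this length, and the search for the core was added after the Irs2 sequence had been read. A CCAAT box stood in Irs2, Foxo1 and Pik3r1 and in 33.8% of all promoters. A GC box was found in 8 of the 13 entries, at least once in each of the 8 genes, and in 32.7% of all promoters. The FOXO site GTAAACA and the nuclear receptor site AGGTCA were found only in 1 of the 2 entries of Akt1 and in 3.17% and 14.0% of all promoters, and the cyclic AMP site TGACGTCA in 0 entries and 1.55% of all. These matches describe letters and are no measure of binding.

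None of the 10 genes passed the test of irradiation. limma, a linear model with a shared estimate of the spread, was fitted to all 18193 genes with the experiment as a block, and after Benjamini-Hochberg adjustment it called 0 of the 10 genes and 0% of all genes at an adjusted p under 0.05. At an unadjusted p under 0.05 limma gave 0 of the 10 genes and 3.31% of all genes. The adjusted p was 0.995 for each of the 10 genes in limma with Benjamini-Hochberg, and under 11 other settings it lay between 0.926 and 1. Mean differences, always irradiated minus control on the log2 scale, ran from -0.19 for Akt1 and Akt2 to 0.023 for Slc2a1, with standard errors between 0.077 and 0.14 (n = 3 experiments). All 10 genes had a 95% confidence interval within 1.5-fold in either direction, as had 98.3% of all genes and 98.9% of those at or above the median level, where all 10 lie. The intervals are per gene and bound changes in these array values only. Of the 10 genes 8 had a mean below 0, where 53.3% of all genes did, and 4 had without experiment 2.

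**Figure D1:**
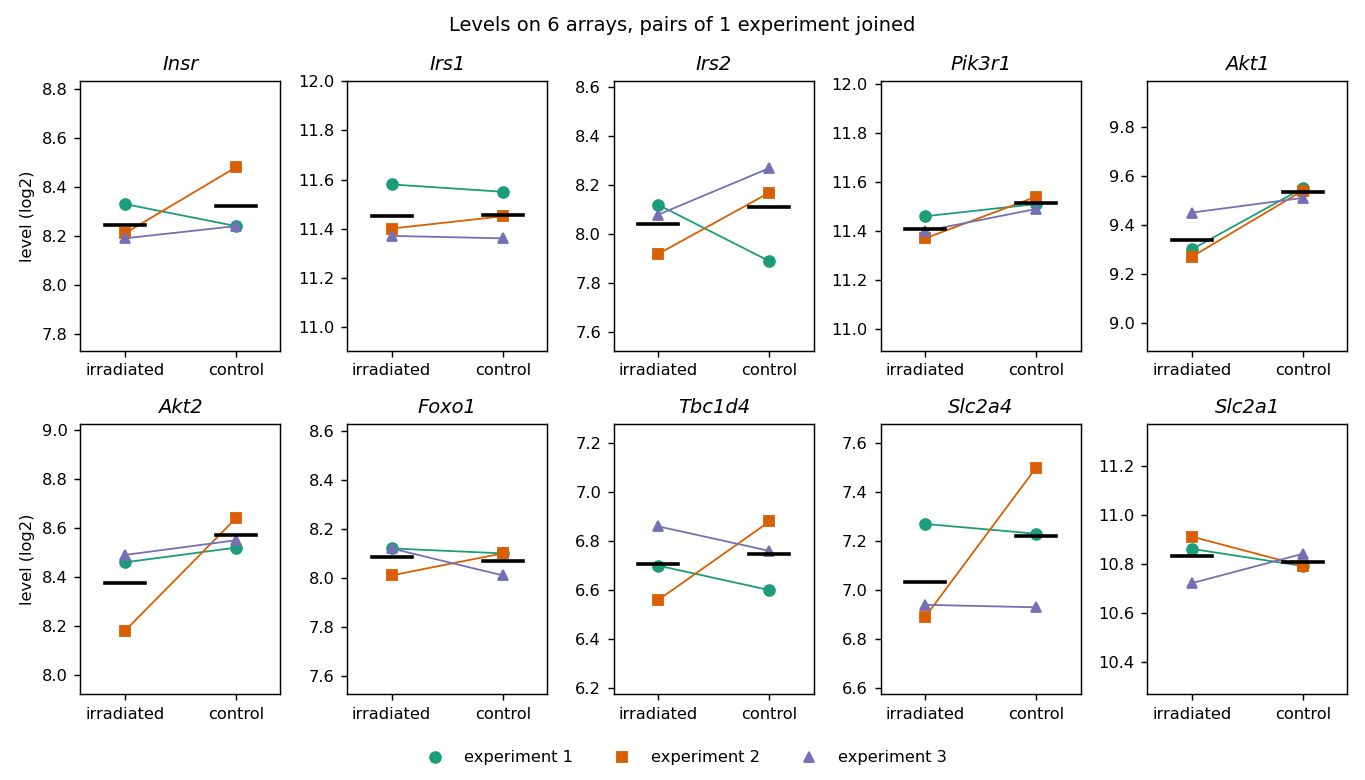
Level of each gene (log2, vertical axis, the same height of 1.1 units in every panel) in irradiated cultures (left) and control cultures (right), with a line joining the 2 cultures of 1 experiment and a black bar at the group mean. Slc2a4 and Akt2 have their steepest line in experiment 2, and the groups do not overlap for Pik3r1, Akt1 and Akt2.

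**Figure D2:**
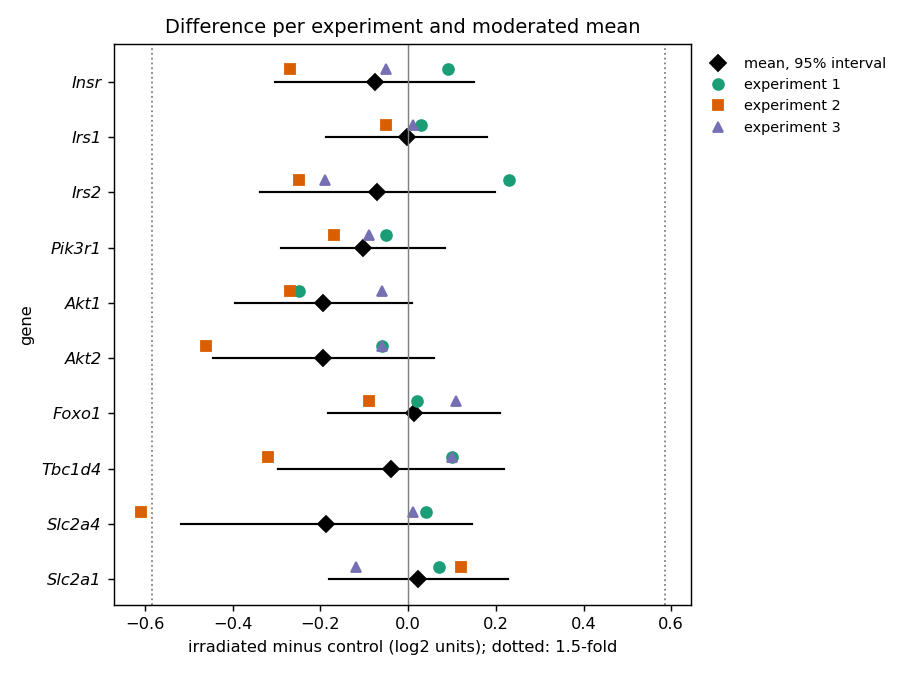
Irradiated minus control in log2 units for each gene, with coloured symbols for the 3 experiments and a diamond with a line for the limma mean and its 95% confidence interval; dotted lines stand at 1.5-fold. Every interval includes 0 and lies within the dotted lines, while the experiment 2 value of Slc2a4 (-0.61) lies beyond them.

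The insulin receptor and its adaptors differed little between the groups. Insr, the receptor, had levels of 8.33, 8.21 and 8.19 in irradiated cultures of experiments 1 to 3, against 8.24, 8.48 and 8.24 in their controls. The groups overlapped, and the highest value was the control's in experiment 2. The mean difference was -0.077 (SE 0.095; 95% interval -0.30 to 0.15). Of its 2 dimmer probe sets, the one at a mean level of 4.84 was lower in each experiment, at -0.34, -0.27 and -0.20, and the one at 3.80 had -0.03, -0.30 and 0.27. The probe set at 4.84 is the only one of the 27 probe sets with an unadjusted p under 0.05 in limma (0.0168; adjusted p 0.995 over 45037 probe sets, of which 3.77% reached that unadjusted level), and its groups overlapped. All 3 probe sets of Insr were below 0 in experiment 2 and in their means, and they differed in sign in experiments 1 and 3. Averaged over them, Insr stood at -0.12.

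Irs1, an adaptor that the receptor phosphorylates, differed least within pairs of the 10 genes (SD of the 3 differences 0.042). It had 11.58, 11.40 and 11.37 in irradiated cultures and 11.55, 11.45 and 11.36 in controls. Each pair lay within 0.05 of each other, and the experiments differed more than the groups. Its difference was -0.0033 (SE 0.077; interval -0.19 to 0.18). Irs2, the adaptor whose transcription FOXO factors are known to raise when insulin is low, had 8.12, 7.92 and 8.08 in irradiated cultures and 7.89, 8.17 and 8.27 in controls. It was higher than its control in experiment 1, by 0.23, and lower in experiments 2 and 3, with differences of -0.25 and -0.19. The mean of -0.070 (SE 0.11; interval -0.34 to 0.20) was smaller than the spread of the 3 differences (SD 0.26). Irs1 and Irs2 each had 1 probe set, so neither had a check.

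Pik3r1, Akt1 and Akt2 were the genes whose irradiated and control levels did not overlap. Such a gap was found for 3 of the 10 genes and for 8.26% of all genes, and the same 3 were the ones lower in all 3 experiments, as were 12.8% of all genes. No gene of the 10 was higher in all 3, as 8.23% of all genes were. Pik3r1, the regulatory subunit of the lipid kinase, had 11.46, 11.37 and 11.40 in irradiated cultures and 11.51, 11.54 and 11.49 in controls. The gap between the groups was 0.03, and the difference was -0.10 (SE 0.078; interval -0.29 to 0.084). Its 3 dimmer probe sets overlapped between the groups and were each above 0 in experiment 1 (0.11 to 0.18) and below 0 in experiment 2 (-0.34 to -0.20).

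Akt1, the more widely expressed of these kinases, had 9.30, 9.27 and 9.45 in irradiated cultures and 9.55, 9.54 and 9.51 in controls. All controls were within 0.04 of each other, and experiments 1 and 2 had similar differences, -0.25 and -0.27, against -0.06 in experiment 3. The mean of -0.19 (SE 0.084; interval -0.39 to 0.0079) had an unadjusted p of 0.0572 in limma, the lowest of the 10 genes. The probe sets of Akt1 disagreed. A second one at a level of 7.59 was also lower in each experiment (-0.03, -0.27 and -0.11), with all 3 controls at 7.66, whereas those at 5.41 and 5.08 had means above 0, at 0.15 and 0.23, and reached 0.28 and 0.50 in experiment 2. With all probe sets of the gene averaged, Akt1 stood at 0.012.

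Akt2, the kinase most tied to glucose uptake by insulin, had 8.46, 8.18 and 8.49 in irradiated cultures and 8.52, 8.64 and 8.55 in controls. The irradiated culture of experiment 2 was the lowest and its control the highest of the 6. The mean of -0.19 (SE 0.11; interval -0.44 to 0.058) rested mainly on that experiment, at -0.46 against -0.06 in each of the others, and it was -0.06 without it. The next probe set of Akt2, at a level of 6.99, also had its lowest difference in experiment 2 (-0.35) but 0.20 in experiment 1. The dimmest, at 6.18, had -0.12, -0.06 and 0.05, and the average over the 3 probe sets was -0.098. The probe set used for Akt2, like that for Foxo1, carries the suffix by which Affymetrix marks probes that can match more than 1 gene.

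The AKT substrates Foxo1 and Tbc1d4 showed no common direction over the experiments. Foxo1, the transcription factor, had 8.12, 8.01 and 8.12 in irradiated cultures and 8.10, 8.10 and 8.01 in controls. The groups overlapped, and the mean was 0.013 (SE 0.082; interval -0.18 to 0.21). Its probe set at a level of 6.92 differed by -0.53 in experiment 2, against 0.00 and 0.13 in experiments 1 and 3, the one at 6.33 had -0.20, -0.25 and 0.16, and the dimmest lay between -0.06 and 0.11. Averaged over its 4 probe sets, Foxo1 stood at -0.044, on the other side of 0. Tbc1d4, which holds back GLUT4 vesicles until AKT phosphorylates it, had 6.70, 6.56 and 6.86 in irradiated cultures and 6.60, 6.88 and 6.76 in controls. It was higher than its control by 0.10 in experiments 1 and 3 and lower in experiment 2, with a difference of -0.32. The mean was -0.040 (SE 0.11; interval -0.30 to 0.22), and without experiment 2 it was 0.10. The dimmer probe set of Tbc1d4, at a level of 5.16, had -0.14, -0.17 and 0.06, so the probe sets differed in sign in experiment 1, and their average stood at -0.062.

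Of the transporter genes, Slc2a4 had the lowest experiment 2 value of the 10 genes and Slc2a1 the only one above 0, and neither passed the test over the 3 experiments. Slc2a4 had 7.27, 6.89 and 6.94 in irradiated cultures and 7.23, 7.50 and 6.93 in controls, a mean of 7.03 ± 0.21 against 7.22 ± 0.29 (SD, n = 3 each). In experiments 1 and 3 each pair lay within 0.04, and in experiment 2 the irradiated culture was the lowest and the control the highest of the 6. The difference there was -0.61, a value that 0.643% of all genes matched or went below. Over the 3 experiments it was -0.19 (SE 0.14; interval -0.52 to 0.14, or 0.698-fold to 1.11-fold), and without experiment 2 it was 0.025. The dimmer probe set of Slc2a4, at 5.98, had -0.03, -0.73 and 0.19, and so shared the low value of experiment 2.

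Slc2a1 had 10.86, 10.91 and 10.72 in irradiated cultures and 10.79, 10.79 and 10.84 in controls. The irradiated culture was the higher of the pair in experiments 1 and 2, by 0.07 and 0.12, and the lower in experiment 3, with a difference of -0.12. The mean of 0.023 (SE 0.086; interval -0.18 to 0.23) was within the spread of the 3 differences (SD 0.13). Its probe set at 10.54 had -0.08, 0.11 and -0.12 and the one at 8.99 had -0.09, -0.01 and -0.24. The last did not overlap between the groups and was lower in all 3 experiments, unlike the brightest one. Averaged over its 3 probe sets, Slc2a1 stood at -0.040, so that its sign depends on the probes.

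Fat cell markers shared the low value of Slc2a4 in experiment 2. Of the 12 measured markers 12 were below 0 in experiment 2, with a median of -0.61, against 3 in experiment 1 (median 0.070) and 4 in experiment 3 (median 0.020). All 12 had a mean below 0 over the 3 experiments, and 3 had without experiment 2. Lipe, hormone-sensitive lipase, differed by -0.05, -1.17 and -0.03 in experiments 1 to 3, Adig, or adipogenin, by -0.07, -0.94 and -0.22, and Pnpla2, adipose triglyceride lipase, by 0.02, -0.83 and 0.01. Pparg, the receptor that Roziglitazone activates, had 0.09, -0.55 and -0.11. The brightest markers differed less in experiment 2, Fabp4 by -0.12, Adipoq by -0.26 and Lpl by -0.12, as did Retn by -0.21. Adig had an unadjusted p of 0.0442 and an adjusted p of 0.995 in limma. The markers' summed linear signal ran from 57575 to 69696 in irradiated cultures and from 60751 to 70997 in controls. It was lowest in the irradiated and highest in the control culture of experiment 2. Fabp4, Adipoq and Lpl, at mean levels of 14.4, 13.7 and 13.7, weigh most in this sum, and they differed less. The part of the fat cell sum in the difference of Slc2a4 was not tested. Stromal and macrophage markers lay mostly above 0 in that experiment. Of 9 stromal markers 2 were below 0 in experiment 2, against 3 in each of the others, with medians of 0.030, 0.090 and 0.00 in experiments 1 to 3. The highest in experiment 2 were Itgb1, an integrin, at 0.30, the growth factor receptor Pdgfrb at 0.28 and the surface enzyme Nt5e at 0.27. Alcam, Cd44, Pdgfra and Vcam1 stood between 0.04 and 0.11 there, Eng at -0.05 and Thy1 at -0.19. The stromal sum there was 10334 in the irradiated and 9265 in the control culture. In the same order it was 10232 and 10270 in experiment 1 and 9306 and 9308 in experiment 3. Of 10 macrophage markers 2 were below 0 in experiment 2, against 10 and 3 in experiments 1 and 3. Their sum was 51169 in the irradiated and 49932 in the control culture of experiment 2. In the same order it was 41764 and 45268 in experiment 1 and 56715 and 52764 in experiment 3. The part of either was not tested. Skeletal muscle markers, the other known source of Slc2a4, summed to 172 to 176 in irradiated cultures and 159 to 183 in controls.

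**Figure D3:**
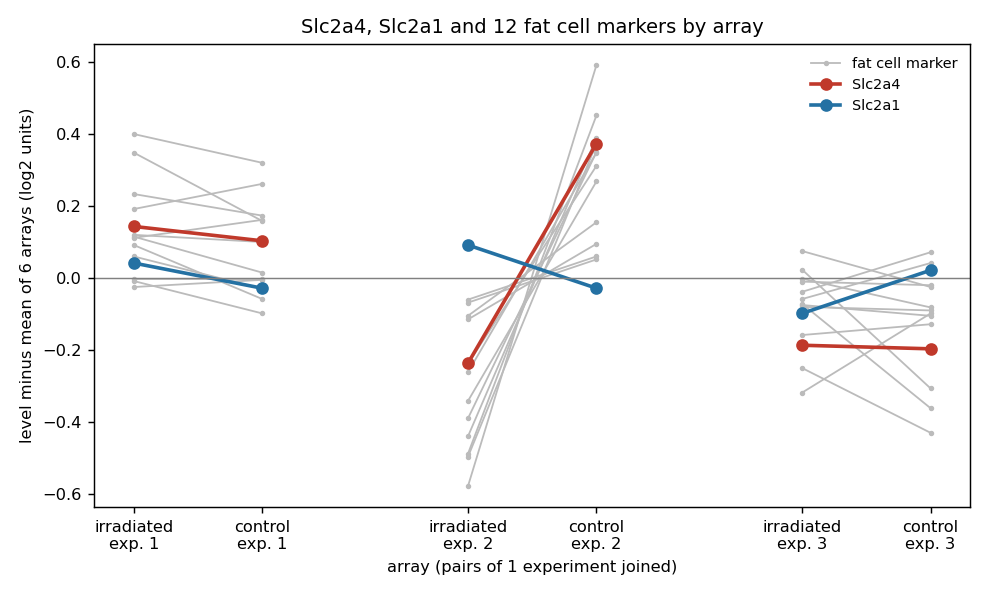
Level minus the mean of the 6 arrays (log2 units, vertical axis) for Slc2a4 (red), Slc2a1 (blue) and the 12 fat cell markers (grey) on each array, with irradiated left of control in each experiment and lines joining the pair. In experiment 2 Slc2a4 and all 12 markers are lower in the irradiated culture (-0.61 for Slc2a4), and Slc2a1 is higher by 0.12.

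The genes most like Slc2a4 over the 6 arrays were Car5b, a mitochondrial carbonic anhydrase, Ndrg2 and Prxl2a. Likeness was the root mean square difference between profiles, each centred on its own mean, among 9098 other genes at or above the median level. It was 0.033 log2 units for Car5b, 0.047 for Ndrg2 and 0.048 for Prxl2a, where the profile of Slc2a4 itself had a root mean square of 0.22. Car5b differed by 0.12, -0.60 and 0.04 in experiments 1 to 3 and Ndrg2 by 0.10, -0.58 and 0.13. These genes were picked for nearness to the values of Slc2a4, so their low value in experiment 2 follows from the choice. For Irs2 the nearest were Rrs1 (0.026), Shroom3 (0.032) and Pdlim1 (0.041), against a root mean square of 0.13 for Irs2. Each of them was higher in the irradiated culture of experiment 1 and lower in those of experiments 2 and 3, which likewise follows from the choice. For Slc2a1, a flat profile with a root mean square of 0.060, they were Ppp4r3b (0.017), Tmem33 (0.019) and Kitl (0.020). With 6 arrays many genes can lie this near, and a flat profile is near to any other flat one.

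Experiment 2 was the experiment with the most of the 10 genes below their controls. Of the 10 genes 9 were below 0 in experiment 2, where 50.1% of all genes were, with a median of -0.26 against -0.01 for all genes. In experiment 1 it was 3 of 10 (56.4% of all genes; medians 0.035 and -0.03), and in experiment 3 it was 6 of 10 (48.5%; medians -0.055 and 0). Slc2a1 was the exception in experiment 2. After Slc2a4 (-0.61) the lowest were Akt2 (-0.46) and Tbc1d4 (-0.32), followed by Insr and Akt1 (-0.27 each), Irs2 (-0.25), Pik3r1 (-0.17), Foxo1 (-0.09) and Irs1 (-0.05). The values of Foxo1 and Irs1 were small, and 31.7% and 40.8% of all genes matched or went below them. Both arrays of the pair took part. The control was the highest of the 6 arrays for 5 genes (18.1% of all genes), the irradiated culture the lowest for 5 (15.8%), and both held for Pik3r1, Akt2, Tbc1d4 and Slc2a4, 4 of 10 (4.77%). Of the 17 other probe sets of these genes 14 were below 0 in experiment 2 as well. With 1 pair there is no replicate of experiment 2, so these values describe that pair.

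**Figure D4:**
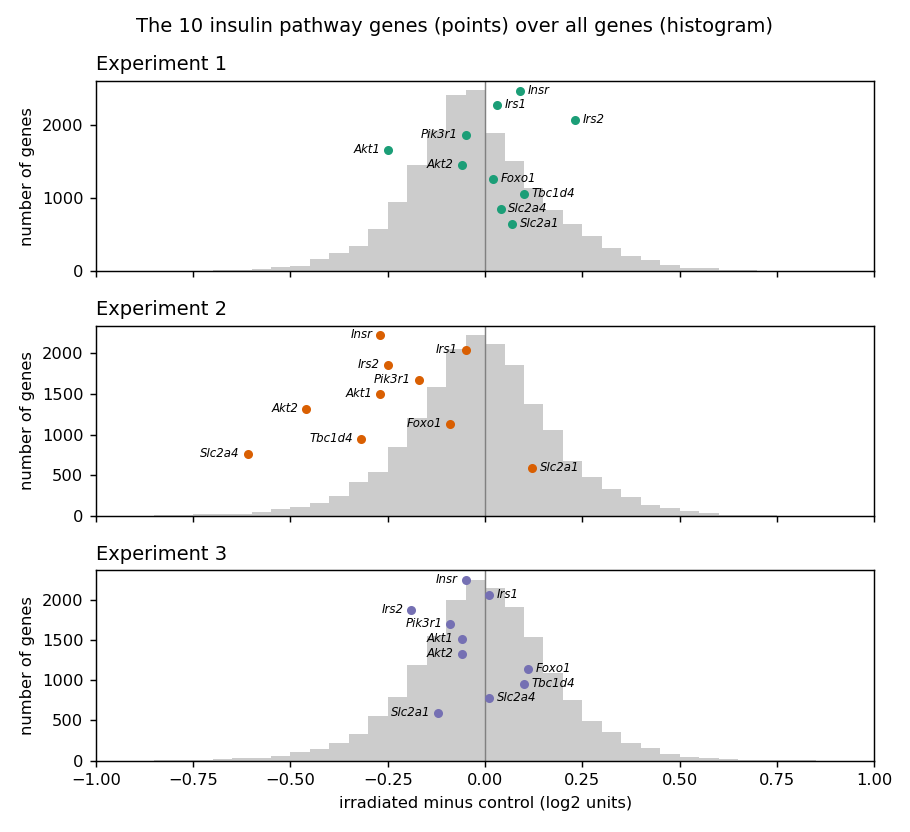
Irradiated minus control (log2 units, horizontal axis) in each experiment, as a histogram of all 18193 genes (vertical axis, number of genes) with the 10 genes as labelled points, whose height only separates the names. The points lie to the left of 0 for 9 of 10 genes in experiment 2, against 3 in experiment 1 and 6 in experiment 3.

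Other genes of the pathway were described through 8 lists, 130 genes of which 122 were measured and 101 lay at or above the median level. limma with Benjamini-Hochberg called 0 of the 122 (0% of all genes), and 6 of them (4.92%) had an unadjusted p under 0.05, 1 higher and 5 lower, beside 1.42% and 1.89% of all genes. The median difference over all genes was -0.01, and the list medians ran from -0.037 for glucose phosphorylation and glycogen to 0.017 for the negative regulators. In 118 of the 122 the 95% interval lay within 1.5-fold either way. In experiment 2, 61 of the 122 were below 0, where 50.1% of all genes were.

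Among receptors and adaptors 4 of 11 were above 0 and 7 below (median -0.010). The ubiquitin ligase Cbl stood at 0.080 (SE 0.087), the exchange factor Sos1 at -0.080 (SE 0.087) and the adaptor Shc1 at 0.040 in each of the 3 experiments. The 10 phosphoinositide enzymes had 5 above 0 and 4 below (median 0.0017), with the regulatory subunit Pik3r3 at 0.077 (SE 0.089), the phosphatase Inpp5k at -0.063 (SE 0.083) and the catalytic subunit Pik3cb at 0.033 (SE 0.13). The median of the phosphoinositide list was 0.0425 without experiment 1 and -0.0775 without experiment 3.

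Of 16 genes of AKT and the mTOR complexes 3 were above 0 and 12 below (median -0.020). Tsc2, the brake on mTOR complex 1 that AKT phosphorylates, had 7.70, 7.49 and 7.76 in irradiated cultures and 7.92, 7.81 and 7.97 in controls. It was lower in every experiment (-0.22, -0.32 and -0.21), and the groups did not overlap, as for 8.26% of all genes. Its mean of -0.25 (SE 0.078) had an unadjusted p of 0.0162 and an adjusted p of 0.995 in limma. Eif4ebp1 and Eif4ebp2, translation repressors downstream of mTOR, stood at -0.16 (SE 0.12) and -0.15 (SE 0.096).

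The negative regulators had 8 of 15 above 0 and 7 below (median 0.017). Socs3, which blocks the insulin and cytokine receptors, had 10.07, 10.19 and 10.13 in irradiated cultures and 9.88, 9.92 and 9.96 in controls. It was higher in each experiment, by 0.21 on average (SE 0.078), at an unadjusted p of 0.0319 and an adjusted p of 0.995 in limma. Its groups did not overlap, as for 8.26% of all genes. Trib3, an AKT-binding pseudokinase, stood at -0.36 (SE 0.14), with -0.80 in experiment 3, whose control array is the one that stood apart in the actin probe sets, against -0.08 and -0.19 in the others. Grb14, an adaptor that inhibits the receptor, had -0.13, 0.48 and 0.01 and a mean of 0.12 (SE 0.13). The probe sets used for Socs3, Trib3 and Eif4ebp1 carry an x suffix, which also marks probes that can match other sequences. Other probe sets of these genes are not given here.

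Genes of GLUT4 vesicle traffic split evenly, with 13 of 24 above 0 and 11 below (median 0.010). Those with the largest differences were Trarg1, a GLUT4 vesicle protein of fat cells, at -0.31 (SE 0.17), Tbc1d1, the relative of Tbc1d4, at -0.19 (SE 0.085), and Sort1, a sorting receptor of these vesicles, at -0.13 (SE 0.13). All of these were lowest in experiment 2, at -0.86, -0.32 and -0.52. The list did not share this, as 10 of its 24 genes were below 0 in experiment 2, with a median of 0.03. Of the other glucose transporters 5 of 11 were above 0 and 6 below (median -0.020), and 4 reached the median level. Slc2a9, a urate transporter, stood at -0.18 (SE 0.11), Slc2a3 at -0.050 (SE 0.13) and Slc2a8 at -0.043 (SE 0.082).

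FOXO factors and targets had 11 of 19 above 0 and 7 below (median 0.013), with no common direction. Gadd45a, a stress-response gene, stood at -0.16 (SE 0.10), Foxo3 at -0.14 (SE 0.080) and Pdk4, which spares glucose by blocking pyruvate oxidation, at 0.12 (SE 0.10). The 16 genes of glucose phosphorylation and glycogen had 4 above 0 and 12 below (median -0.037). Pde3b, the phosphodiesterase through which insulin restrains lipolysis, stood at -0.12 (SE 0.11), with -0.42 in experiment 2, muscle-type glycogen synthase Gys1 at -0.11 (SE 0.097) and liver-type glycogen phosphorylase Pygl at 0.087 (SE 0.095).

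**Figure D5:**
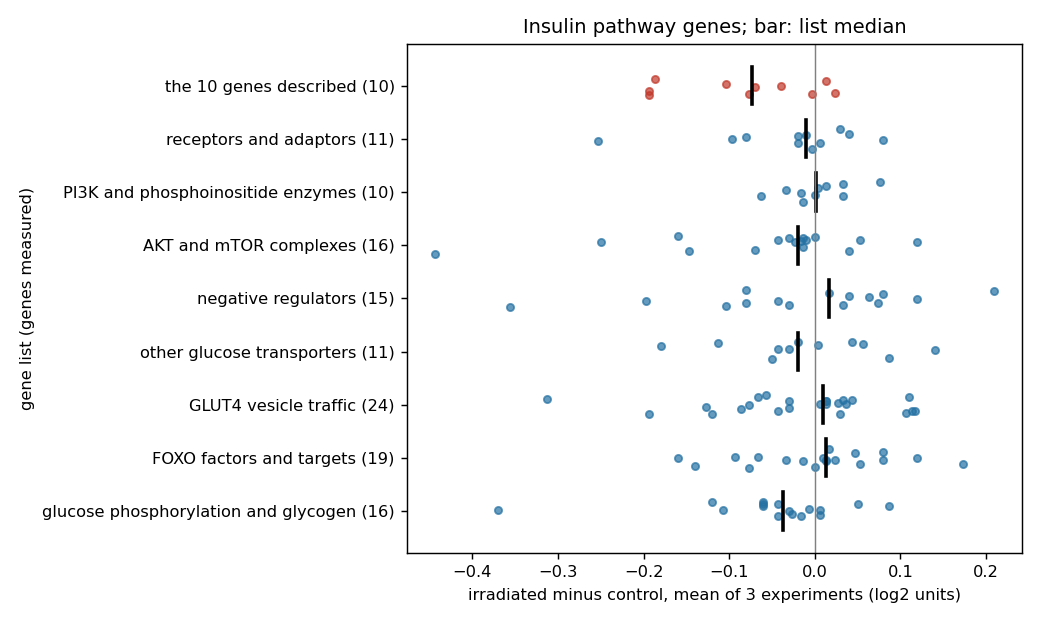
Mean irradiated-minus-control difference over 3 experiments (log2 units, horizontal axis) of each measured gene in the 10 genes described (red) and 8 lists of other pathway genes (blue), with a black bar at each list's median; points are spread vertically only to separate them. The medians of the 8 lists lie between -0.037 and 0.017, and that of the 10 genes at -0.073.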

How the data were processed

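The deposited table gives the authors' log2 expression values for 45101 probe sets. RMA, the affy package and limma are named, per the submitters' processing notes, without versions. The log base is not given in the sources used, and the range of 1.73 to 14.53 is that of RMA log2 values. RMA equalises the distributions of the arrays, so a shift of every transcript alike would be lost, and it tends to understate changes of dim probe sets. Detection calls and hybridization dates were not used here. Without 64 array controls, 45037 probe sets were fitted, and 34945 of them had 1 symbol in the platform annotation, from which 18193 genes came.

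limma 3.58.1 (R 4.3.3; lmFit, eBayes) compared irradiated with control arrays with the experiment as a block, and an adjusted p under 0.05 (Benjamini-Hochberg) counted as a call. The series' design text gives the pairing. Over genes, the deviations from the group mean correlated between the 2 arrays of a pair at 0.15, -0.090 and -0.012 in experiments 1 to 3. There were 2 residual degrees of freedom, and eBayes contributed 4.66 more. The 3 experiments are called independent in the design text. The limma p-values set a mean difference against the spread between them, which is drawn toward a spread shared over all genes. The script was tested on simulated data. Alternatives were the fit without or with a random block, each experiment left out, a median filter, centring, trended and robust variance, all probe sets, mean over probe sets and an ordinary paired test. Named genes are the 10, the 3 of each pathway list with the largest mean difference at or above the median level, the 3 nearest profiles of Slc2a4, Slc2a1 and Irs2, and fat cell markers where a result on Slc2a4 turns on them. Stromal markers and some of the fat cell markers were named after their values were seen. The 10 genes and the lists were chosen with earlier results of these data known.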

Additional observations from a re-analysis of the deposited data

How the results depend on the processing

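The call of 0 of the 10 genes was the same under all 11 alternatives, and that of 0 of 18193 genes under all but the ordinary paired test with no moderation. That test called 8 genes, 0 of them among the 10, each with rounded differences that were equal in every experiment and at most 0.17 log2 units in size. Without the replicate block limma also called 0 genes, with a lowest adjusted p of 0.997, and the block changed no other call. The unadjusted limma p of Akt1 was under 0.05 without the block (0.030), with a random block (0.032) and without experiment 3 (0.043). So it was with the median filter (0.037) and with trended and robust variance (0.029). In the other limma settings it was above 0.05, up to 0.87 with the mean over probe sets. With 1 experiment left out, the difference ran from -0.16 to 0.02 for Insr, -0.02 to 0.02 for Irs1, -0.22 to 0.02 for Irs2, -0.11 to 0.10 for Tbc1d4, -0.30 to 0.025 for Slc2a4, -0.025 to 0.095 for Slc2a1 and -0.035 to 0.065 for Foxo1. The value on the other side of 0 came without experiment 2, and for Foxo1 without experiment 3. Averaging all probe sets turned Akt1 (0.012), Foxo1 (-0.044) and Slc2a1 (-0.040), and centring each array turned Irs1 (0.0050). The cause was not tested. Akt2 and Pik3r1 were below 0 under all 11 alternatives. The number of the 10 genes below 0 was 4 without experiment 2, and from 7 to 9 in the 5 other settings, which were chosen after seeing the data. Leaving out each experiment in turn, the list medians ran from -0.070 to -0.010 for AKT and mTOR, -0.055 to 0.065 for the negative regulators, -0.050 to 0.045 for the other glucose transporters, -0.0775 to 0.0425 for the phosphoinositide enzymes and -0.0425 to 0.030 for GLUT4 traffic. Signal over background was not read, so how far background limits the dim probe sets is not given here.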

Other observations

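Some pathway genes outside the naming rule had an unadjusted p under 0.05 in limma and are given here because of their values. The glycogen-targeting phosphatase subunit Ppp1r3d, at a mean level of 6.03, differed by -0.30, -0.50 and -0.31 in experiments 1 to 3. Prr5, a subunit of mTOR complex 2, at a level of 3.69, differed by -0.57, -0.25 and -0.51. Socs1, an inhibitor of cytokine and insulin receptors related to Socs3, at a level of 4.42, differed by -0.18, -0.25 and -0.16, the opposite sign to Socs3. All 3 lie below the median gene level, where background weighs more, and none passed in limma (adjusted p 0.995 for each).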
